A study of Mus musculus with 4 samples.

Results

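p53, the product of Trp53, is a transcription factor that answers DNA damage and other stress. It switches on genes that stop the cell cycle, start apoptosis, repair DNA and adjust metabolism. A pair of regulators keeps it in check: Mdm2 marks it for degradation and is itself a p53 target, so the pair forms a feedback loop, and Mdm4 blocks its activity. KAT6A, a histone acetyltransferase, has been reported to acetylate p53 in human cells. The set described here holds Trp53, its regulators and its known targets, taken from the gene rows by symbol. All 32 members were found among the 41543 gene symbols, and all 32 were expressed highly enough to be tested.

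Polyadenylated RNA was sequenced from E14TG2a mouse embryonic stem (ES) cells kept on gelatin in medium with serum and LIF, a cytokine that maintains the undifferentiated state. Cells labelled KAT6A KO, made by CRISPR/Cas9 editing, were compared with cells labelled Control, with 2 libraries each. The labels give neither the site of the edit nor whether a group's libraries came from 1 clone or from separate cultures, so the p-values speak only to how these libraries vary, which may be technical.

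Libraries carrying the KAT6A KO label (KO-labelled below) held 30185640 and 27494041 counts, and the controls held 35616899 and 37354623. Kat6a itself had 242 and 86.4 CPM (scaled counts per 1000000) in KO-labelled libraries 1 and 2, against 145 and 143 CPM in the controls. The level in KO-labelled library 1, above both controls, thus goes against its label, and that in library 2 lay below both. Counts over the whole gene do not show whether an edit is present, and each direction below rests on the labels. All 10 ES cell markers were detected in every library, and 3 were higher, with summed levels of 6609 and 7066 CPM in the KO-labelled libraries against 5257 and 5281 CPM in the controls. Endoderm markers were also detected, and 7 of 10 were lower (edgeR, adjusted p under 0.05), with summed levels of 869 and 1703 CPM against 3894 and 3720 CPM. Of 7 tested trophoblast markers 4 were lower, and of 4 tested neural markers 2 were higher and 1 lower, while up to 4 fibroblast and up to 2 mesoderm markers had no count in a library. Fewer endoderm-like cells and less RNA per cell cannot be told apart in such bulk samples, and the part of this shift in the results below was not tested. Genes on chromosome 11, which carries Trp53, Ccng1 and Dcxr, were lower as a whole, with a median log2 fold change of -0.46 over 1322 tested genes. Of these, 40.5% were lower at an edgeR adjusted p under 0.05, against 5.71% of tested genes on other chromosomes.

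p53 acts through short DNA elements, so promoters with a match to its recognition sequence are given for Trp53, its feedback gene Mdm2, the arrest gene Cdkn1a and members that passed the test below. RefSeq windows of 300 bases (GRCm38.p6) ran from 250 bases before to 50 after a start site. Matching by symbol, with the chromosome of Pmaip1 left out, gave 35 windows for 24 of the 32 members. Whether Pmaip1 has a match was therefore not tested. The set of all 32851 windows, used for comparison below, was not limited in this way. The search used the p53 response-element decamer, a 10-base consensus that reads the same on both strands. It was found in 11 of the 35 member windows (31.4%), against 8.36% of all 32851 windows. These 11 windows belong to 10 members, since overlapping windows of Aen hold the same decamer. A pair of decamers with a spacer of at most 13 bases and at most 2 mismatches in all was found in 3 member windows (8.57%), those of Cdkn1a, Bax and Sesn1, against 2.12% of all windows. A match is a description of letters, and no match says only that these letters are not in this window. In the sequences of the 250 bases before the start, 5′ to 3′, capitals mark the decamers, including those of a pair with mismatches.
Cdkn1a (chr17:29090729-29090978, plus strand): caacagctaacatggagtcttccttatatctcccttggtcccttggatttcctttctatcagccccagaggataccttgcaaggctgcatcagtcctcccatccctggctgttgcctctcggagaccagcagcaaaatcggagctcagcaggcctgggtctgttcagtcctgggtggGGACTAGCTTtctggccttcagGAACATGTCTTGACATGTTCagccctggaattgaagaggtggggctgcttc
Bax (chr7:45466899-45467148, minus strand): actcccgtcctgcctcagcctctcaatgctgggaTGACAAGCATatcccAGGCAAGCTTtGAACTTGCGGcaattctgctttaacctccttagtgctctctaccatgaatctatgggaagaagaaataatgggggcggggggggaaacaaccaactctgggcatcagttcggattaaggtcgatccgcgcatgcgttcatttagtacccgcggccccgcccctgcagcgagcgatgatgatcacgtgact
Mdm2 (chr10:117710759-117711008, minus strand): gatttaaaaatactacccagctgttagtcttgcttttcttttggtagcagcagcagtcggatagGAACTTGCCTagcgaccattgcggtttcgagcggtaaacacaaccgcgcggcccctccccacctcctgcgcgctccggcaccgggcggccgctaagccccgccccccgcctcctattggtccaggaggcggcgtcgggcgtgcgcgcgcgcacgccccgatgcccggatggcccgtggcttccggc
Trp53 (chr11:69580109-69580358, plus strand): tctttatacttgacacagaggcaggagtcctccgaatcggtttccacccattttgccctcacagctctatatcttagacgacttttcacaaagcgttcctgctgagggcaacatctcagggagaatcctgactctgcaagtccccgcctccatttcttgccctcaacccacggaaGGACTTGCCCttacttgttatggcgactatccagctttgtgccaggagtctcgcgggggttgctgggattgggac
Ccng1 (chr11:40755287-40755536, minus strand): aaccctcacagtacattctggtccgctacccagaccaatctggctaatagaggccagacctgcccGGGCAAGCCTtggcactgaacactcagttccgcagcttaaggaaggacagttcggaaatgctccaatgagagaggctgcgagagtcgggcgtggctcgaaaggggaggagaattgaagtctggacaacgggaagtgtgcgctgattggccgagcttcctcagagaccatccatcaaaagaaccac
Ei24 (chr9:36797335-36797584, minus strand): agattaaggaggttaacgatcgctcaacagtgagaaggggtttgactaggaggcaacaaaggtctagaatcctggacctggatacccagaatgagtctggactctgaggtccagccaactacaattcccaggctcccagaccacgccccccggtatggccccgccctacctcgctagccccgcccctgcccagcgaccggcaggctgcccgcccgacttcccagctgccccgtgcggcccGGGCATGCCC
The Cdkn1a window shown holds perfect decamers on either side of a short spacer, and another with 1 mismatch follows the second directly. Cdkn1a has another window, at a start site farther downstream (chr17:29093519-29093768), in which no decamer and no pair was found. The p53 elements known to drive Mdm2 lie in its first intron, outside this window. In the windows of Mdm2, Trp53, Ccng1 and Ei24 a single decamer was found. Among the other called members, no decamer was found in the windows of Btg2, Pidd1, Phlda3 and Gdf15. KAT6A has been linked to CpG islands, so CG pairs were counted too: member windows held a median of 20, with a range of 1 to 46, against a median of 7 over all windows. These sets are unlike, since all members were expressed highly enough to be tested, while all windows were not limited to tested genes. The Gdf15 windows held 1 and 7, and the Mdm2 window held 35.

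Neither Trp53 nor the genes most often read as its output, Mdm2 and Cdkn1a, passed the test between the groups, while 5 targets rose and 2 fell. Gdf15, Pidd1, Phlda3, Ei24 and Bax rose, and Ccng1 and Btg2 fell, by edgeR's quasi-likelihood test with Benjamini-Hochberg adjustment over all 16112 tested genes. The 5 rises make 15.6% of the members, where 5.76% of all tested genes rose, and the 2 falls make 6.25%, where 8.57% of all tested genes fell. The libraries of the groups did not overlap for 21 of the 32 members, 14 with both KO-labelled libraries above both controls and 7 below. Over all tested genes 64.3% did not overlap, 31.5% above and 32.8% below, so the members' share of 65.6% lay near the background. The median log2 fold change of the members was 0.09, against 0.01 for all tested genes.

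**Figure D1:**
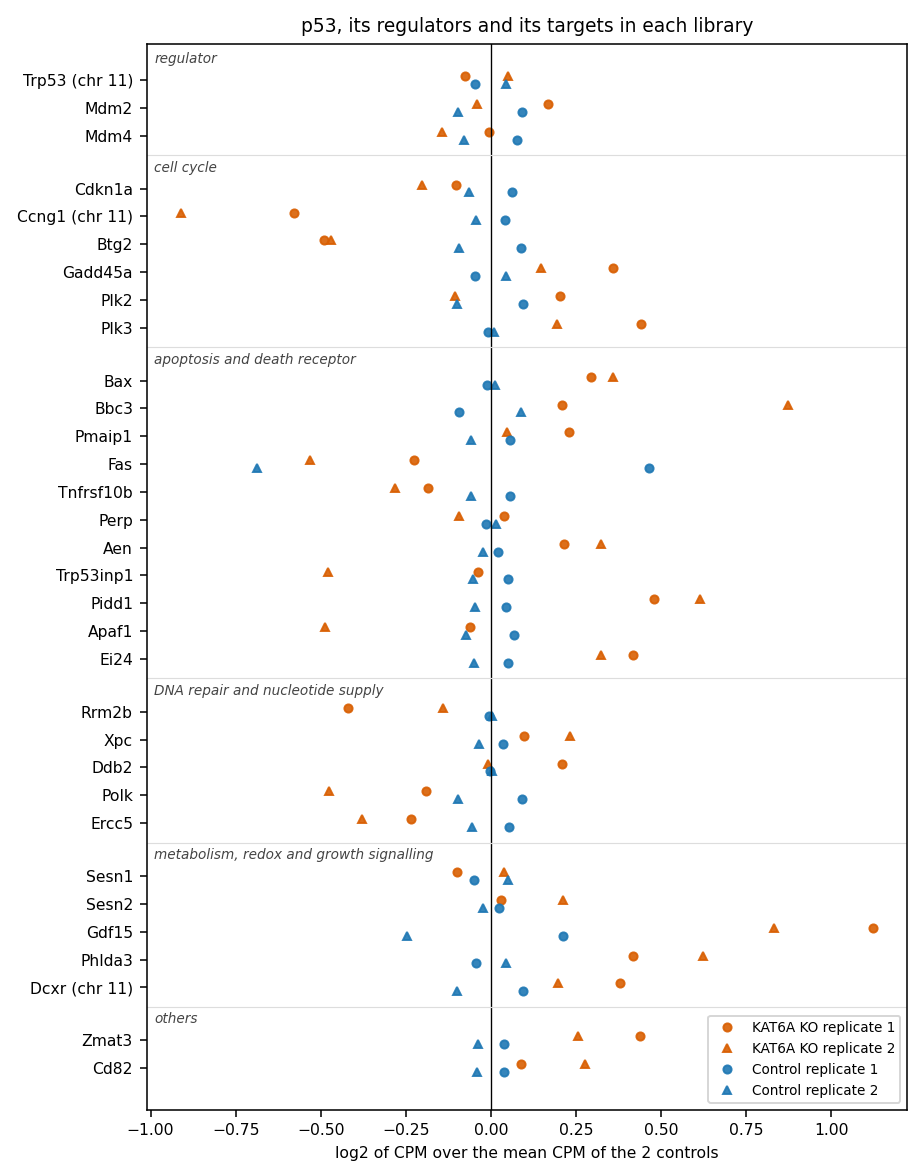
Level of each member in each library, as the log2 of its CPM over the mean CPM of the 2 controls (0 on the axis), with members grouped by role. Orange symbols are the KO-labelled libraries and blue symbols the controls, circles for replicate 1 and triangles for replicate 2. Gdf15 stands farthest to the right and Ccng1 farthest to the left, while the symbols of Trp53, Mdm2 and Mdm4 overlap.

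Trp53, on the plus strand of chromosome 11 at 69580359 to 69591873 (GRCm38, GENCODE M21), had 553 and 605 CPM in the KO-labelled libraries and 565 and 602 CPM in the controls. The groups overlapped fully. Its log2 fold change was -0.01 ± 0.09 (SE), with a 95% interval of -0.23 to 0.20 and an edgeR adjusted p of 0.939. The interval lies above the median of chromosome 11 (-0.46): of the 1322 tested genes on this chromosome, 11.9% had a higher fold change than Trp53. Within 1000000 bases of Trp53, 90 other tested genes had a median of -0.32, and 18 of them were lower.

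Mdm2, the ubiquitin ligase of p53, had 490.4 and 425 CPM in the KO-labelled libraries and 465 and 409 CPM in the controls. Its values overlapped, and its log2 fold change of 0.07 had a 95% interval of -0.20 to 0.33 (edgeR adjusted p = 0.701). Mdm4, the related inhibitor, had 308 and 280.2 CPM in the KO-labelled libraries and 326 and 293 CPM in the controls. Its log2 fold change was -0.07, with an interval of -0.31 to 0.16 (edgeR adjusted p = 0.625). True differences of any size inside these intervals remain possible with these libraries.

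**Figure D2:**
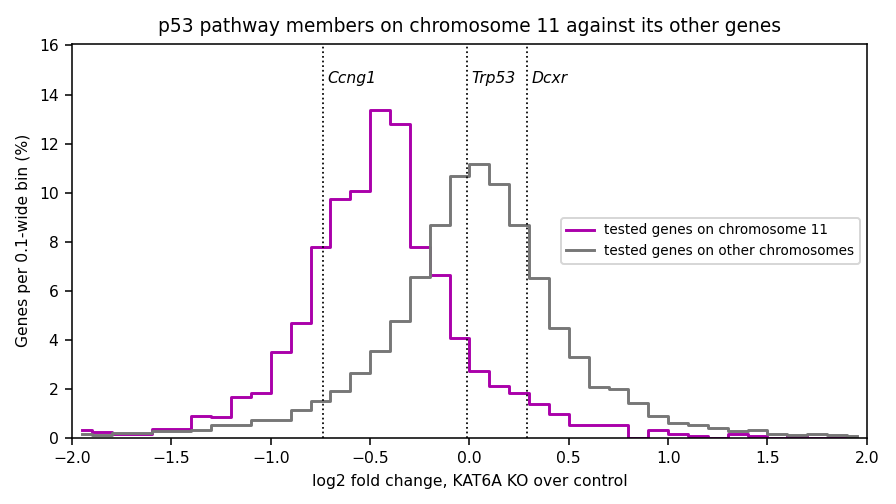
Distribution of log2 fold changes, KAT6A KO over control, for tested genes on chromosome 11 (purple) and on the other chromosomes (grey), as the percent of genes in each bin, with dotted lines at the 3 members on chromosome 11. The purple curve is centred near -0.46. Ccng1 lies on its left side at -0.74, Trp53 on its right side at -0.01 and Dcxr farther right at 0.29. The 1.29% of chromosome 11 genes and 1.09% of other genes beyond the axis are not drawn.

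Of the 6 members that act in the cell cycle, Ccng1 and Btg2 fell (33.3%, where 8.57% of all tested genes fell). The other 4 did not pass. Ccng1 encodes cyclin G1, which recruits a phosphatase to MDM2 and takes part in feedback on p53. It had 579 and 460.4 CPM in the KO-labelled libraries and 891 and 839 CPM in the controls. All values of the KO-labelled libraries lay well below the controls. The log2 fold change was -0.74 ± 0.12 (SE), or 0.601 times the control level, with an edgeR adjusted p of 0.0174. Ccng1 lies on the minus strand of chromosome 11 at 40748552 to 40755311. Its fold change was 0.28 below the median of that chromosome on the log2 scale, and 79.2% of the tested genes there had a higher one. Only 3 other genes within 1000000 bases were tested; all 3 fell, with a median of -0.50. The fall of Ccng1 was called in all 12 alternative fits that kept its chromosome, but its size varied: -0.58 without KO-labelled library 2, -0.91 without KO-labelled library 1, and -0.33 with a correction for GC content (edgeR adjusted p = 0.040).

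Btg2, an antiproliferative cofactor of mRNA deadenylation, is on chromosome 1 at 134075170 to 134079120. It had 78.03 and 79.2 CPM in the KO-labelled libraries and 117 and 103 CPM in the controls. The KO-labelled libraries were close to each other and below both controls. Its log2 fold change was -0.48 ± 0.10 (SE), or 0.717 times the control level (edgeR adjusted p = 0.0262). Btg2 was not called once control replicate 1 (log2 fold change -0.39) or control replicate 2 (-0.57) was left out.

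Cdkn1a encodes p21, the inhibitor of cyclin-dependent kinases through which p53 halts the cycle. It had 110.1 and 103 CPM in the KO-labelled libraries and 123 and 113 CPM in the controls. Both KO-labelled values lay below both controls. The difference did not pass, with a log2 fold change of -0.15 and a 95% interval of -0.37 to 0.07 (edgeR adjusted p = 0.282). Plk3 and Plk2 encode stress-responsive polo-like kinases, and Gadd45a a damage-response adaptor. Plk3 had 154 and 129.9 CPM in the KO-labelled libraries and 113 and 114 CPM in the controls (log2 fold change 0.32, edgeR adjusted p = 0.083). Gadd45a had 44.7 and 38.6 CPM against 33.8 and 36.0 CPM in the controls, and Plk2 had 181 and 147 CPM against 168 and 147 CPM. Plk3 and Gadd45a did not overlap between the groups, while Plk2 did.

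The 11 members of apoptosis and death signalling held 3 rises (27.3%, where 5.76% of all tested genes rose). The median log2 fold change of the 11 was 0.14. Pidd1, a scaffold that activates caspase-2, is on chromosome 7 at 141438113 to 141444025. It had 54.4 and 59.7 CPM in the KO-labelled libraries and 40.2 and 37.8 CPM in the controls. The log2 fold change was 0.55 ± 0.10 (SE), 1.46 times the control level (edgeR adjusted p = 0.0208). Ei24, a membrane protein of the endoplasmic reticulum also known as PIG8, is on chromosome 9 at 36779159 to 36797393. It had 217 and 203 CPM in the KO-labelled libraries and 168 and 157 CPM in the controls (log2 fold change 0.37 ± 0.09 SE, edgeR adjusted p = 0.0379). Bax, the pore-forming effector of mitochondrial apoptosis, is on chromosome 7 at 45461697 to 45466898. It had 172 and 180.0 CPM in the KO-labelled libraries and 139 and 141 CPM in the controls (log2 fold change 0.33 ± 0.08 SE, edgeR adjusted p = 0.0430). For all 3 genes both KO-labelled libraries stood above both controls. Ei24 shares 324 exon bases with an antisense gene, so its count is uncertain if strand was not used, and Bax shares 192 with a gene on its own strand, Gm45808, which had 0 counts in every library, so its count is uncertain with or without strand.

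These 3 genes were not called once either control was left out, where the spread is taken from the KO-labelled pair. Without control replicate 1 the log2 fold change was 0.59 for Pidd1, 0.42 for Ei24 and 0.31 for Bax. Without control replicate 2 it was 0.51, 0.32 and 0.34, and with all libraries 0.55, 0.37 and 0.33. The call of Bax also ended with a correction for GC content (edgeR adjusted p = 0.19), where its log2 fold change was 0.14. Without the genes of chromosome 11 in the fit, the edgeR adjusted p was 0.069 for Bax and 0.063 for Ei24.

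Bbc3, which encodes the BH3-only protein PUMA, showed how far the KO-labelled libraries could differ. It had 49.9 and 79.1 CPM in KO-labelled libraries 1 and 2, against 40.4 and 45.9 CPM in the controls. Both stood above the controls, but by unequal amounts. The log2 fold change was 0.58 ± 0.21 (SE, edgeR adjusted p = 0.112). It was 0.20 without KO-labelled library 2 and 0.87 without KO-labelled library 1. With the GC-content correction it was 0.09 (edgeR adjusted p = 0.668). In the authors' deposited table Bbc3 had a log2 fold change of 0.52 with an adjusted p of 0.0238.

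Pmaip1, which encodes the BH3-only protein NOXA, had 61.8 and 54.5 CPM in the KO-labelled libraries and 54.8 and 50.6 CPM in the controls, and these overlapped (edgeR adjusted p = 0.379). Aen, an apoptosis-enhancing nuclease, had 241 and 259.5 CPM against 211 and 204 CPM in the controls, with no overlap (log2 fold change 0.27, edgeR adjusted p = 0.077). Trp53inp1, a stress-induced p53 cofactor, had 513 and 378 CPM in the KO-labelled libraries and 546 and 508 CPM in the controls. Apaf1, the core of the apoptosome, had 105 and 77.8 CPM against 114 and 104 CPM. For both genes KO-labelled library 1 lay within the range of the controls and library 2 below it, and neither passed (edgeR adjusted p = 0.294 and 0.264).

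The death receptors and Perp, a desmosomal protein, did not pass. Tnfrsf10b, a TRAIL receptor, had 53.8 and 50.3 CPM in the KO-labelled libraries and 63.5 and 58.8 CPM in the controls (log2 fold change -0.23, edgeR adjusted p = 0.142). Fas was the member with the lowest level: its 26 and 19 counts in the KO-labelled libraries and 49 and 23 counts in the controls leave a 95% interval of -1.42 to 0.70 for its log2 fold change. Perp had 32.6 and 29.8 CPM in the KO-labelled libraries and 31.4 and 32.1 CPM in the controls, with overlap, and a log2 fold change of -0.03 with an interval of -0.28 to 0.23.

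**Figure D3:**
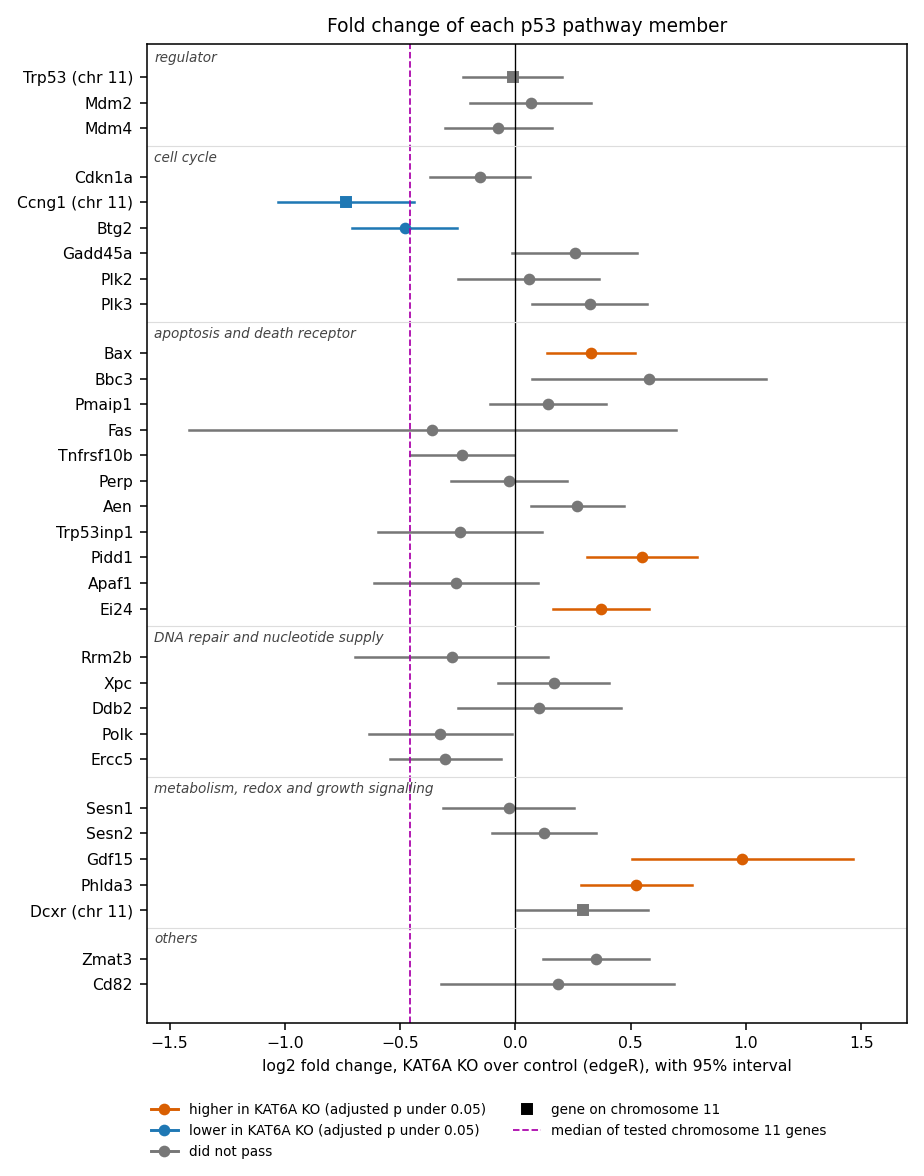
The log2 fold change, KAT6A KO over control, of each member from edgeR (symbol) with its 95% interval (line), by role. Orange marks the 5 rises, blue the 2 falls and grey the members that did not pass, squares mark genes on chromosome 11, and the dashed line is the median of tested chromosome 11 genes at -0.46. The interval of Trp53 lies to the right of the dashed line, and that of Fas is the widest.

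Of the 5 members of DNA repair and nucleotide supply, 0 passed the edgeR test, where 14.3% of all tested genes did. With DESeq2 or limma-voom 0 passed as well. With a block for the replicate number Polk passed (log2 fold change -0.33, edgeR adjusted p = 0.047). Without KO-labelled library 1 the log2 fold changes of the 5 genes ran from -0.48 (Polk) to 0.23 (Xpc). Without library 2 they ran from -0.42 (Rrm2b) to 0.20 (Ddb2). With all libraries they ran from -0.33 to 0.17. At an unadjusted p under 0.05 edgeR had 2: Polk, a translesion polymerase, and Ercc5, the endonuclease XPG. Polk had 47.6 and 39.1 CPM in the KO-labelled libraries and 57.9 and 50.8 CPM in the controls (edgeR adjusted p = 0.134). Ercc5 had 50.04 and 45.3 CPM against 61.1 and 56.6 CPM in the controls (edgeR adjusted p = 0.0882). In both the KO-labelled libraries lay below the controls. Xpc, a sensor of bulky lesions, lay above them, with 44.2 and 48.6 CPM against 42.3 and 40.3 CPM (edgeR adjusted p = 0.286). Rrm2b, the p53-inducible subunit of ribonucleotide reductase, had 4.76 and 5.78 CPM against 6.36 and 6.398 CPM (edgeR adjusted p = 0.309). Ddb2, another damage sensor, had 10.6 and 9.13 CPM against 9.17 and 9.21 CPM (edgeR adjusted p = 0.655). Ddb2 shares 652 exon bases with Acp2 on the opposite strand, and Rrm2b shares 734 with an antisense gene. Gadd45a shares 337, Cdkn1a 273 and Plk3 84 with genes on the opposite strand, so the counts of these 5 members are uncertain if strand was not used in counting.

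Of the 5 members of metabolism, redox and growth signalling, Gdf15 and Phlda3 rose (40%, where 5.76% of all tested genes rose). Gdf15 encodes a secreted stress cytokine of the TGF-beta family, on chromosome 8 at 70629393 to 70632456. It had 15.6 and 12.8 CPM in the KO-labelled libraries and 8.30 and 6.05 CPM in the controls, from 475 and 351 counts against 295 and 224. Its log2 fold change of 0.99 ± 0.20 (SE) was the highest of the 32 members, at 1.98 times the control level (edgeR adjusted p = 0.0277). Gdf15 was no longer called once control replicate 2 was left out (log2 fold change 0.77) or GC content was corrected for (log2 fold change 0.72, edgeR adjusted p = 0.094). Gdf15 is known as a target of the ATF4 stress response as well.

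Phlda3, which opposes AKT at the membrane, is on chromosome 1 at 135766119 to 135769136. It had 131 and 152 CPM in the KO-labelled libraries and 95.4 and 101 CPM in the controls, without overlap. The log2 fold change was 0.52 ± 0.10 (SE), 1.44 times the control level (edgeR adjusted p = 0.0240). Phlda3 was not called once control replicate 1 (log2 fold change 0.47) or control replicate 2 (0.57) was left out. The sestrins restrain mTORC1. Sesn2 had 596 and 676 CPM in the KO-labelled libraries and 593 and 574 CPM in the controls (edgeR adjusted p = 0.389). Sesn1 had 19.4 and 21.3 CPM against 20.03 and 21.5 CPM in the controls, with overlap, and a log2 fold change of -0.03.

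Dcxr, a carbonyl and xylulose reductase at the far end of chromosome 11 (120725399 to 120727281), had 47.7 and 42.1 CPM in the KO-labelled libraries and 39.1 and 34.2 CPM in the controls. The KO-labelled libraries lay above both controls, while 69 other tested genes within 1000000 bases had a median log2 fold change of -0.41, 20 of them lower and 1 higher. Dcxr did not pass itself (log2 fold change 0.29, edgeR adjusted p = 0.139), but 4.77% of the tested genes on chromosome 11 had a higher fold change. The transcripts of Dcxr hold 60.0% GC, and with a correction for GC content its log2 fold change was 0.07 (edgeR adjusted p = 0.771). Zmat3, a zinc-finger RNA-binding protein that controls splicing, had 209.9 and 185 CPM in the KO-labelled libraries and 159 and 151 CPM in the controls (log2 fold change 0.35, edgeR adjusted p = 0.0559). In the authors' deposited table it was called, with a log2 fold change of 0.34 and an adjusted p of 0.0399. Cd82, a tetraspanin, had 2.30 and 2.62 CPM in the KO-labelled libraries against 2.22 and 2.11 CPM in the controls (edgeR adjusted p = 0.577).

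The authors' deposited table called the same 7 members, with Bbc3 and Zmat3 in addition, so that 7 members were higher and 2 lower there. Over all genes with an adjusted p-value in the authors' deposited table, 6.94% were called higher and 10.1% lower.

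Per kilobase of exon, Ccng1, Sesn2 and Trp53 were the most abundant members. Ccng1 stood at 148 CPM per kilobase in the KO-labelled cells and 246 in the controls, Sesn2 at 183 and 168, and Trp53 at 143 and 144. The order of these 3 at the top therefore differed between the groups, with Sesn2 first in the KO-labelled cells and Ccng1 first in the controls. Mdm2 stood at 90.0 and 85.9, Cdkn1a at 29.9 and 33.3, and Fas lowest at 0.375 and 0.485 CPM per kilobase in the KO-labelled cells and the controls.

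**Figure D4:**
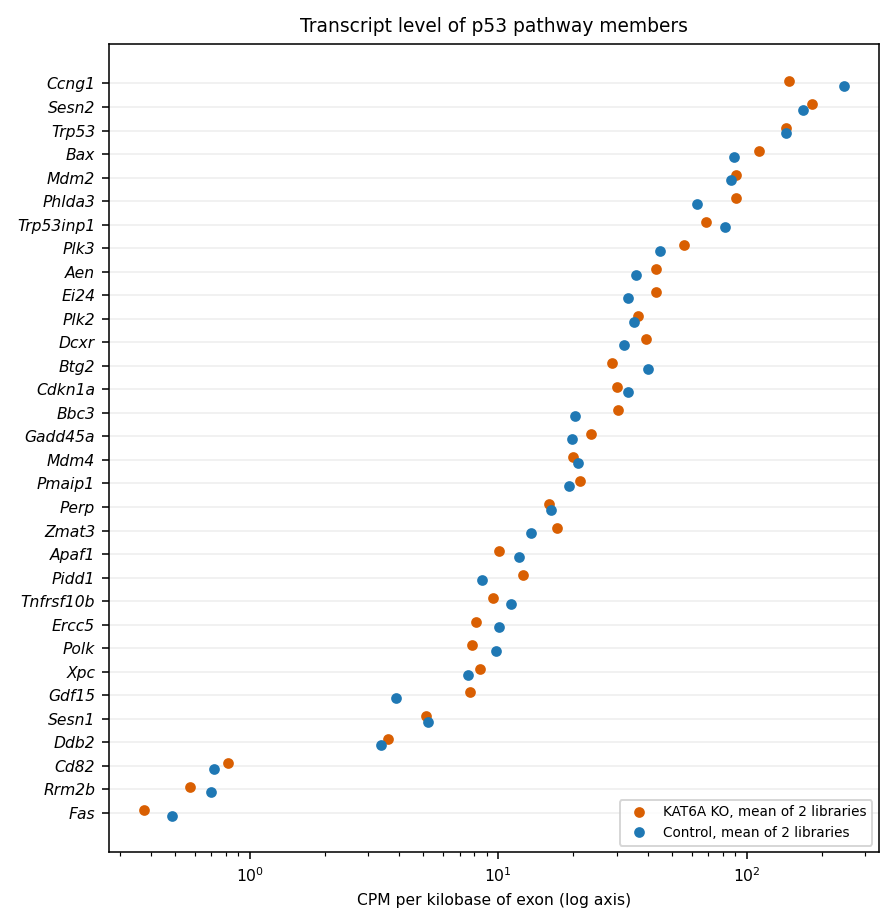
Mean level of each member in CPM per kilobase of exon on a log axis, in KO-labelled cells (orange) and controls (blue), ordered by the mean of both groups. Fas, Rrm2b and Cd82 lie at the bottom with levels under 1, and Ccng1, Sesn2 and Trp53 at the top.

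Among the members, and among all tested genes, fold changes were higher where transcripts held more GC. All 9 members in the quintile of genes with the highest GC content had both KO-labelled libraries above both controls, with a median log2 fold change of 0.33, and 4 of them rose. All tested genes of that quintile had a median of 0.22; 50.3% of them had both KO-labelled libraries above both controls, and 12.7% rose. Of the 7 members in the quintile with the lowest GC content, 6 had a fold change below 0, with a median of -0.28 against -0.19 for all tested genes there. The 5 rises lay above the median of their own quintile, Gdf15 by 0.77, Ei24 by 0.45, Pidd1 by 0.33, Phlda3 by 0.31 and Bax by 0.11 on the log2 scale. Ccng1, whose transcripts hold 37.4% GC, lay at -0.54 relative to its quintile and Btg2 at -0.49. These members were picked as called in the same fit, so the side on which they lie was largely set by that choice. With an offset for GC content in the fit, Ei24, Pidd1, Phlda3, Ccng1 and Btg2 were still called, and Pmaip1 and Zmat3 were called higher as well (log2 fold changes 0.39 and 0.36, edgeR adjusted p = 0.029 and 0.043).

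**Figure D5:**
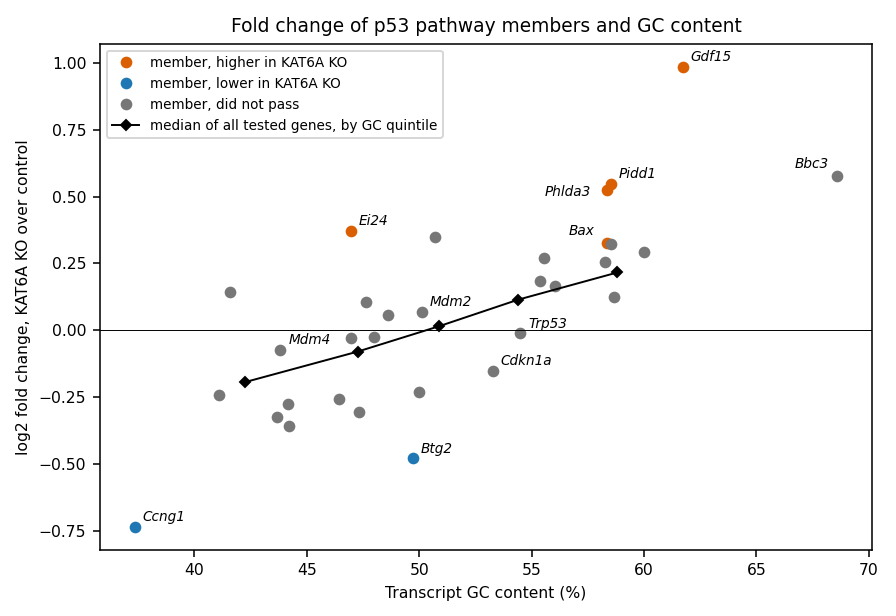
The log2 fold change, KAT6A KO over control, of each member against the mean GC content of its transcripts in percent. Orange, blue and grey points are members that rose, fell or did not pass, and black diamonds are the medians of all tested genes in 5 bins of GC content, which run from -0.19 to 0.22. Ccng1 lies at the low-GC end below the black line, and Gdf15 at the high-GC end above it.

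The members also differed between the KO-labelled libraries. For 24 of 32 members these libraries lay farther apart than the controls did, with a median distance of 0.18 against 0.10 on the log2 scale. This was not particular to the members. Over all tested genes the standard deviation of the log2 difference, another measure, was 0.46 between the KO-labelled libraries and 0.26 between the controls. Bbc3 was 0.67 higher in library 2 than in library 1, and Trp53inp1 and Apaf1 were 0.44 and 0.43 lower. Of the 9 members with the highest GC content, 5 were higher and 4 lower in library 2 than in library 1, with differences of -0.29 for Gdf15 and -0.24 for Plk3. Of the 7 with the lowest GC content, 6 were lower in library 2, and Rrm2b was 0.28 higher. The medians of all tested genes by GC quintile ran from -0.32 to 0.28 in KO-labelled library 2, and in library 1 from -0.09 to 0.13.

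Genes around p53 that are not in the set were taken from 4 lists. In the list of damage signalling upstream of p53, 14 genes were tested, of which 1 rose (7.14%) and 3 fell (21.4%), with a median log2 fold change of -0.03. Over all tested genes 5.76% rose and 8.57% fell. H2ax, the histone variant phosphorylated at breaks, had 345 and 446 CPM in the KO-labelled libraries and 221 and 257 CPM in the controls (edgeR adjusted p = 0.0260). Trp53bp1, which binds p53 and directs break repair, had 74.2 and 72.7 CPM against 113 and 112 CPM in the controls (edgeR adjusted p = 0.0115). The other falls were Brca1 (log2 fold change -0.53) and Rad50 (-0.58), both on chromosome 11. On that chromosome 40.5% of tested genes fell, against 5.71% on other chromosomes.

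Among 21 tested modifiers and relatives of p53, 1 rose and 1 fell (4.76% each), below the shares over all tested genes. Trp73, the p53 paralog, had 26.9 and 31.7 CPM in the KO-labelled libraries and 13.4 and 12.0 CPM in the controls, a log2 fold change of 1.21 ± 0.14 (SE, edgeR adjusted p = 0.0092). That log2 fold change lay above that of each of the 32 members. Ppm1d, the phosphatase WIP1 that switches off p53 signalling and is itself a p53 target, is on chromosome 11. It had 56.6 and 56.5 CPM in the KO-labelled libraries and 93.7 and 88.6 CPM in the controls (log2 fold change -0.69, edgeR adjusted p = 0.0103).

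Of 53 tested further reported targets, 7 rose (13.2%, against 5.76% of all tested genes) and 6 fell (11.3%, against 8.57%), with a median log2 fold change of 0.12. Steap3, a metalloreductase, had 26.4 and 26.2 CPM in the KO-labelled libraries and 13.8 and 14.8 CPM in the controls (log2 fold change 0.87). Trp53i11, Mgmt, a DNA repair methyltransferase, and Ak1, adenylate kinase, rose by 0.53, 0.70 and 0.49 on the log2 scale. Among the falls, Thbs1, a matrix glycoprotein, changed by -1.42, Jun, an AP-1 subunit, by -1.20, and Tob1, an antiproliferative relative of Btg2 on chromosome 11, by -0.64 on the log2 scale. The edgeR adjusted p of these 7 genes lay between 0.0112 and 0.0241.

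The last list held BCL2 family members, caspases and other genes of the mitochondrial death pathway (Cycs, Diablo and Xiap). Of its 14 tested genes 3 rose (21.4%, where 5.76% of all tested genes rose), with a median log2 fold change of 0.15. Bak1, the pore-forming relative of Bax, had 56.2 and 62.1 CPM in the KO-labelled libraries and 40.7 and 43.7 CPM in the controls (log2 fold change 0.49, edgeR adjusted p = 0.0289). Bmf, a BH3-only protein, had 32.8 and 37.3 CPM against 24.4 and 23.7 CPM (log2 fold change 0.54, edgeR adjusted p = 0.0293). Bcl2l1, which encodes the survival protein BCL-XL, had 117 and 100.3 CPM against 82.2 and 83.4 CPM (log2 fold change 0.39, edgeR adjusted p = 0.0498). Bak1 and Bmf promote mitochondrial apoptosis, and BCL-XL restrains it.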

How the data were processed

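Per the labels' protocols, total RNA was treated with DNase on the column and made into libraries with a stranded mRNA kit. The authors deposited raw read counts, in whole numbers, for each symbol in each library; featureCounts and DESeq2 are named in the submitters' processing notes without versions. For the aligner, genome build, annotation and counting strand, the sources used here give nothing. The authors also deposited normalized counts (a signal), equal to the counts divided by 1 factor per library (0.945 and 0.848 in the KO-labelled libraries, 1.11 and 1.15 in the controls); these were not used further. The authors' deposited table of their own comparison has no header, and its columns were identified from their values. The authors made a log2 fold change per gene for it. Its standard error and Wald statistic are treated as scores made by the authors. Each p-value and adjusted p-value in it was made by the authors.

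The count model ran in edgeR 4.0.16 (R 4.3.3): filterByExpr kept 16112 genes, TMM factors were 0.992 to 1.01, and the robust quasi-likelihood test had group as its single term, at an adjusted p of 0.05. Fold changes are KAT6A KO over control. A standard error is the size of the log2 fold change over the square root of its F statistic, and 95% intervals use the degrees of freedom of the test. Positions, exon lengths and transcript GC content come from GENCODE M21 on GRCm38, where 97.3% of symbols were found. A chi-square per gene averaged 34.4 between the KO-labelled libraries and 3.70 between the controls, so each library counted separately. Alternatives were RLE scaling, no composition scaling, no low-count filter, DESeq2 1.42.0, limma-voom 3.58.1, a block for the replicate number, an offset for GC content (lowess span 0.3), block and offset together, leaving out chromosome 11, and leaving out each library. The procedure was tested on simulated data. Summaries used Python 3.11.15 (pandas 2.3.3) and plots matplotlib 3.10.9.

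The members and lists were chosen with earlier results of these data known. All members were accounted for; values in every library were required for Trp53, Mdm2, Mdm4, Cdkn1a, members called or changing call under an alternative, and the most and least abundant of each role. Of each other list up to 4 called genes per direction are named by smallest p; 1 gene that this rule names is not reported here.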

Additional observations from a re-analysis of the deposited data

How the results depend on the processing

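With 2 libraries a group, single libraries set many calls, and depth (27494041 to 37354623 counts) limits Fas, Cd82 and Rrm2b most. A fit without 1 library leaves its group a single one, whose spread is then taken from the other group. Over all genes, 254 to 4020 were then higher and 648 to 4400 lower, against 928 and 1381 with all libraries. Of the p53 members 1 to 14 were higher and 1 to 9 lower, against 5 and 2, and of the other pathway genes 2 to 40 were higher and 6 to 32 lower, against 12 and 10. The low counts came from leaving out a control and the high ones from leaving out a KO-labelled library, where the spread came mainly from the control pair. The median of the members ran from 0.042 to 0.15.

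Without chromosome 11, 519 genes were higher and 697 lower, with 3 and 1 members (Bax and Ei24 then had edgeR adjusted p of 0.069 and 0.063, and Ccng1 was not in the fit) and 5 other pathway genes lower. Numbers pair the libraries only by name: deviations of same-numbered libraries had a correlation of 0.09 across genes. With the replicate block 1613 genes were higher and 2147 lower, with 8 members higher, 3 lower (Polk in addition, edgeR adjusted p = 0.047) and 19 other pathway genes lower; with the replicate block and GC-content offset 16 other pathway genes were lower, and with no low-count filter 18.

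Some members changed sign, among them Fas, Trp53inp1 and Sesn2, whose log2 fold changes in the main fit were -0.36, -0.24 and 0.12. With the GC-content offset, and with it and the replicate block, the log2 fold change was 0.10 and 0.10 for Mdm4, 0.0495 and 0.0491 for Perp, 0.0780 and 0.0767 for Sesn1, 0.0178 and 0.0159 for Trp53inp1, and -0.0693 and -0.0690 for Sesn2. Trp53 had 0.0015 with no composition scaling. With 1 library left out, the values ran from -0.0804 to 0.0497 for Trp53, -0.0413 to 0.16 for Mdm2, -0.105 to 0.20 for Plk2, -0.0945 to 0.0344 for Perp, -0.10 to 0.0378 for Sesn1, -0.0101 to 0.20 for Ddb2 and -0.83 to 0.31 for Fas. None of these sign changes passed the test, and the cause was not tested. RLE scaling and limma-voom moved no member across the threshold or through 0.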
